A study of Rattus norvegicus with 6 samples.

Results

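The TGF-beta superfamily ligands Tgfb1, Tgfb2, Tgfb3, Gdf15, Bmp2, Bmp4 and Bmp10, the activin subunits Inhba and Inhbb, and the activin-binding protein Fst were examined in rat myocardium. They were chosen by name, 10 genes out of the 28293 gene symbols or identifiers of the expression table, and all 10 had a row in it. Myocardial tissue of wild-type rats was sequenced in 3 sham samples and 3 ischemia and reperfusion (I/R) samples. In the I/R rats, which were male, the left anterior descending coronary artery was tied off for 30 min under anesthesia and mechanical ventilation, and the heart was taken after 6 h of reperfusion. The titles of the sham samples carry the same times, and the labels do not say which steps of the operation the sham rats underwent. The region of the heart that was taken is not given in the sources used here. The study describes its expression heat map as representative of independent experiments, but the labels do not tie each sample to a rat of its own, so the p-values measure only the spread between these samples, which may be technical.

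Ligands of this superfamily are secreted dimers that bind pairs of receptor kinases on the cell surface, and the receptors phosphorylate Smad proteins that carry the signal to the nucleus. The 3 TGF-beta isoforms are stored in the matrix in a latent complex and must be released before they can bind, whereas activins, which are dimers of inhibin beta subunits, and bone morphogenetic proteins (BMPs) are held in check by secreted binding proteins such as follistatin, the product of Fst. Gdf15 is a distant member that is induced by cellular stress, is a target of the integrated stress response, and acts through the receptor Gfral in the hindbrain. In the injured heart, TGF-beta is best known for its part in fibroblast activation and scar formation, and Gdf15 is known as a circulating marker of cardiac injury.

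Expression was given as FPKM, in which fragment counts are divided by gene length and library size, so levels can be compared between genes. Between samples, the comparison also depends on the total to which each library is scaled, and the make-up of that total differed between the groups. The FPKM values moved in whole steps, from which the number of fragments behind each value was recovered, and the libraries held 36755175 to 49775062 fragments. The mRNAs encoded by mitochondrial DNA took up 80.1% to 86.2% of the summed FPKM in the sham samples and 61.8% to 71.5% in the I/R samples, and the groups did not overlap. The 7 cardiomyocyte markers, which check the tissue label, summed to 3313 to 11177 FPKM in the sham samples and to 21329.8 to 30689 FPKM in the I/R samples. In bulk tissue, fewer cells of a type and less RNA per cell cannot be told apart.

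Tgfb1, Tgfb3 and Bmp4 were the most abundant of the 10 genes, and only Inhbb differed past the threshold, being higher after I/R. By mean FPKM over the 6 samples, Tgfb1 stood above 94.6% of the 19226 genes with any signal, Tgfb3 above 91.1% and Bmp4 above 75.8%. Inhbb and Tgfb2 lay near the middle, above 51.7% and 47.2% of those genes. Fst, Bmp2, Gdf15, Bmp10 and Inhba followed in this order, from 39.2% down to 18.2%. The order Tgfb1, Tgfb3, Bmp4 held within each of the 6 samples, and the lowest value of Bmp4, 2.64 FPKM, was above the highest value of any gene that ranked lower, 1.81 FPKM. Inhbb and Tgfb2 changed places between samples, as did the neighbors Fst, Bmp2 and Gdf15 and the neighbors Bmp10 and Inhba, so the levels of these genes could not be ordered beyond their spread.

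**Figure D1:**
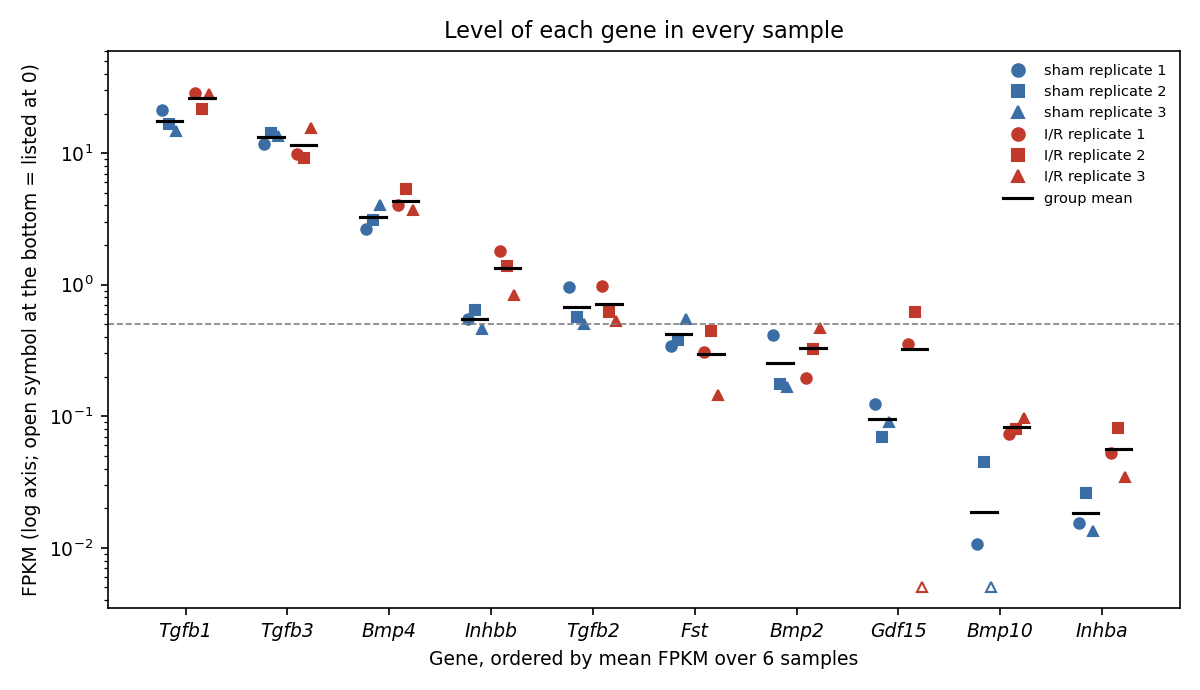
FPKM (log axis) of the 10 genes in each of the 6 samples, with shapes for the replicate number, black bars for group means and a dashed line at the filter of 0.5 FPKM. Tgfb1, Tgfb3 and Bmp4 lie well above the filter in all samples, and the open symbols mark the values listed at 0, Gdf15 in I/R replicate 3 and Bmp10 in sham replicate 3.

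The groups were compared with limma on log2(FPKM + 0.1) over the 10942 genes with a mean of at least 0.5 FPKM. 5 of the 10 genes passed this filter, namely Tgfb1, Tgfb2, Tgfb3, Inhbb and Bmp4, each with a mean above it in both groups. Of these 5, 1 was higher and 0 were lower in I/R at an adjusted p of 0.05 in limma, beside 25.5% called higher and 7.36% called lower among all genes tested, and 2 of the 5 had an unadjusted p under 0.05. In 2 of the 5 genes every I/R sample was above every sham sample, which was the case for 37.2% of all genes tested, and in none was every I/R sample below, against 13.0% of all genes. The median log2 fold change was 0.41 over the 5 genes and 0.29 over all genes tested. The median over all genes depended on the scaling and was 0.48 in TPM, 0.04 with median centring, -0.02 with quantile normalization and -0.48 after scaling to the non-mitochondrial mRNAs.

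None of the 3 TGF-beta isoforms passed the threshold. Tgfb1 (ENSRNOG00000020652), the isoform most associated with scar formation, was at 21.2, 16.7 and 14.8 FPKM in sham replicates 1 to 3 and at 28.8, 21.5 and 28.1 FPKM in I/R replicates 1 to 3, from 1032 to 1545 fragments per library. All I/R samples were above all sham samples, although I/R replicate 2 exceeded sham replicate 1 only narrowly. The mean was 17.6 ± 3.31 FPKM over the sham samples and 26.1 ± 4.02 FPKM over the I/R samples (SD, n = 3). The log2 fold change of Tgfb1 was 0.57 (standard error 0.24, 95% interval 0.03 to 1.11, adjusted p = 0.094 in limma), which missed the threshold, and its sign turned under quantile normalization (-0.25) and under scaling to the non-mitochondrial mRNAs (-0.21). Without sham replicate 1 the log2 fold change was 0.72 and passed the threshold (adjusted p = 0.048 in limma).

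Tgfb3 (ENSRNOG00000009867) was at 11.7, 14.2 and 13.6 FPKM in the sham samples and at 9.91, 9.16 and 15.6 FPKM in the I/R samples. I/R replicates 1 and 2 were below all sham samples and I/R replicate 3 was above them. Its log2 fold change was -0.22 (standard error 0.26, 95% interval -0.79 to 0.36, adjusted p = 0.54 in limma). Under quantile normalization it was -0.90 (adjusted p = 0.045 in limma), and under scaling to the non-mitochondrial mRNAs it was -1.01 (adjusted p = 0.024 in limma), both past the threshold.

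Tgfb2 (ENSRNOG00000002418) was the least abundant isoform, at 0.963, 0.567 and 0.506 FPKM in the sham samples and at 0.979, 0.619 and 0.529 FPKM in the I/R samples. The groups overlapped, and replicate 1 was the highest sample in both. The log2 fold change was 0.06 with a 95% interval of -0.75 to 0.87 (adjusted p = 0.91 in limma), so changes of either sign lie within the interval, and the sign turned under median centring (-0.19) and under scaling to the non-mitochondrial mRNAs (-0.69).

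Ratios of 2 genes within a sample were computed on FPKM + 0.1, so they depend little on the total to which the library was scaled where both genes are well above 0.1 FPKM, and more where one is not, as for Inhba and Gdf15. Tgfb3 was lower relative to Tgfb1 by 0.79 on the log2 scale in the I/R group, from -0.86, -0.24 and -0.12 in the sham samples to -1.53, -1.22 and -0.84 in the I/R samples. Sham replicate 1 lay just below I/R replicate 3, so the groups overlapped (two-sided exact permutation p = 0.2). Tgfb2 relative to Tgfb1 was lower in all I/R samples than in all sham samples, by 0.51 on the log2 scale (two-sided exact permutation p = 0.1, the smallest that 3 against 3 allows), although quantile normalization turned the sign (0.28).

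The 2 activin beta subunits were found at different depths. Inhbb (ENSRNOG00000060237), which encodes the beta B subunit of activin B and inhibin B, was at 0.549, 0.648 and 0.460 FPKM in the sham samples, from 102, 142 and 97 fragments. It was at 1.81, 1.39 and 0.831 FPKM in the I/R samples, from 294, 241 and 136 fragments. Every I/R sample was above every sham sample, and I/R replicate 1 was the highest and I/R replicate 3 the lowest of the I/R samples. The mean rose from 0.552 ± 0.0939 to 1.34 ± 0.493 FPKM (SD, n = 3), a ratio of means of 2.43, and the log2 fold change was 1.10 (standard error 0.34, 95% interval 0.34 to 1.85, adjusted p = 0.032 in limma). The call depended on single samples: without sham replicate 1, 2 or 3 or I/R replicate 1 or 2, the adjusted p in limma was 0.055 to 0.107, and without I/R replicate 3 it was 0.020. It was also lost with no filter (adjusted p = 0.077 in limma) and under scaling to the non-mitochondrial mRNAs, where the log2 fold change was 0.43 (adjusted p = 0.45 in limma).

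Inhba (ENSRNOG00000014320), which encodes the beta A subunit of activin A, was close to undetected, with 1, 2 and 1 fragments in the sham libraries and 3, 5 and 2 fragments in the I/R libraries. As FPKM, the sham samples were at 0.0153, 0.0260 and 0.0135 and the I/R samples at 0.0527, 0.0820 and 0.0348. The I/R values were all higher, but sham replicate 2 and I/R replicate 3 held the same 2 fragments and differed only in library size. Over the group, 4 fragments were counted in sham and 10 in I/R, and without the filter the log2 fold change was 0.39 (95% interval 0.00 to 0.79, adjusted p = 0.16 in limma), so that a difference was not detectable at this depth.

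Fst (ENSRNOG00000011631), whose product follistatin binds activins and keeps them from their receptors, was at 0.343, 0.381 and 0.547 FPKM in the sham samples and at 0.307, 0.447 and 0.146 FPKM in the I/R samples. The groups overlapped, with I/R replicate 3 the lowest sample at 12 fragments (95% Poisson interval 6.20 to 21.0). Without the filter, the log2 fold change was -0.44 (95% interval -1.35 to 0.46, adjusted p = 0.48 in limma). The ratio of Inhba to Fst was higher in all I/R samples than in all sham samples, by 0.84 on the log2 scale, and the ratio of Inhba to Inhbb was lower in all I/R samples, by 0.70, each with the smallest possible two-sided exact permutation p of 0.1. Inhba held at most 5 fragments in any library, and with a pseudocount of 0.01 these differences were 1.79 for Inhba to Fst and -0.01 for Inhba to Inhbb.

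**Figure D2:**
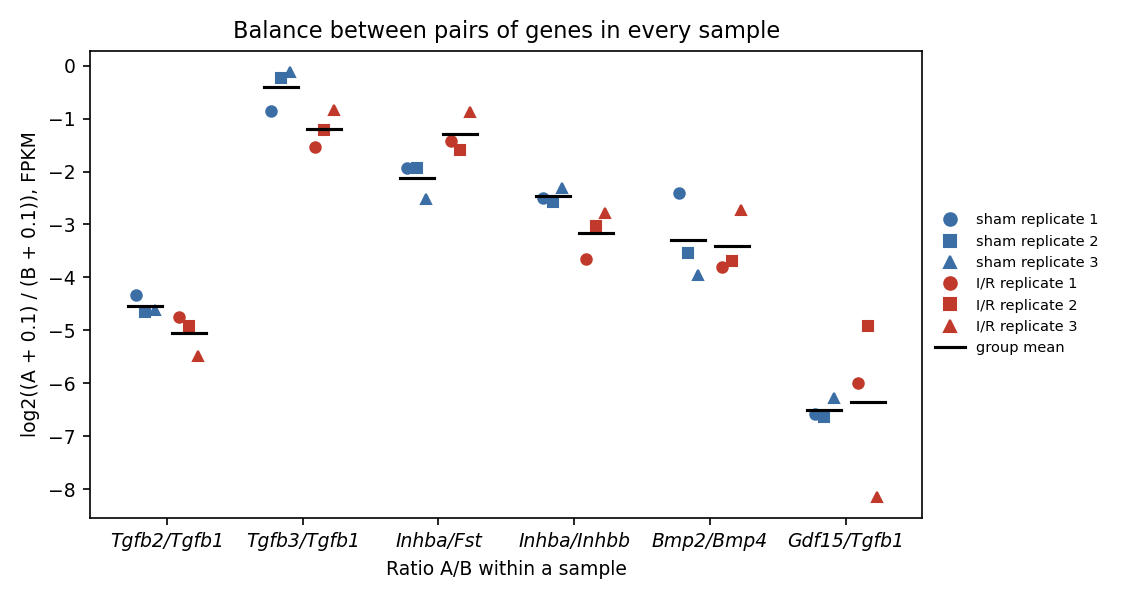
Log2 ratios of 6 pairs of genes within each sample, computed on FPKM + 0.1, with shapes for the replicate number and black bars for group means. The I/R samples lie below the sham samples for Tgfb2 to Tgfb1 and for Inhba to Inhbb and above them for Inhba to Fst, and I/R replicate 3 lies apart at -8.14 for Gdf15 to Tgfb1.

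Over the 6 ratios, the Benjamini-Hochberg adjusted values of the exact permutation p were 0.2 for Tgfb2 to Tgfb1, Inhba to Fst and Inhba to Inhbb, 0.3 for Tgfb3 to Tgfb1, and 0.9 for Bmp2 to Bmp4 and Gdf15 to Tgfb1.

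Gdf15 (ENSRNOG00000019661) was rare and uneven after I/R. The sham libraries held 6, 4 and 5 fragments, or 0.124, 0.0700 and 0.0909 FPKM. I/R replicates 1 and 2 held 15 and 28 fragments, or 0.355 and 0.618 FPKM, and I/R replicate 3 held 0. Thus I/R replicates 1 and 2 were above all sham samples and I/R replicate 3 was below them, although a count of 0 allows up to 3 fragments, or 0.0703 FPKM in that library, which is above the lowest sham sample. The 95% Poisson intervals were 1.09 to 10.2 fragments for the lowest sham library and 2.20 to 13.1 for the highest, 8.40 to 24.7 for I/R replicate 1 and 18.6 to 40.5 for I/R replicate 2, so that only I/R replicate 2 was clear of all sham intervals. Such intervals cover counting error only.

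The mean of Gdf15 was 0.0949 ± 0.0272 FPKM over the sham samples and 0.324 ± 0.310 FPKM over the I/R samples (SD, n = 3). Without the filter, its log2 fold change was 0.72 with a 95% interval of -0.89 to 2.34 (adjusted p = 0.52 in limma), and voom on the recovered fragments gave 0.45 with an interval of -2.23 to 3.12 (adjusted p = 0.85 in limma). The ratio of Gdf15 to Tgfb1 was -6.57, -6.63 and -6.28 on the log2 scale in the sham samples and -5.99, -4.91 and -8.14 in the I/R samples, a difference of 0.15 (two-sided exact permutation p = 0.9). In I/R replicate 3, where Gdf15 is listed at 0, the pseudocount alone stands for Gdf15 in this ratio. Without I/R replicate 3 this difference was 1.05, without I/R replicate 2 it was -0.57 and without I/R replicate 1 it was -0.03, so its sign rested on single libraries.

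Among the I/R samples, replicate 3 was the lowest for the integrated stress response genes Atf3, Atf4 and Trib3, though for each it stayed above all sham samples. It was also the lowest I/R sample for Ddit3, Sesn2 and Vldlr of that list, for the latter pair by a narrow margin. For these genes it was not above all sham samples. Chac1 and Asns did not share this order. Among the I/R samples, Chac1 was lowest in replicate 1 (0.640 FPKM, against 1.06 FPKM in replicate 3). Asns was highest in replicate 3 (0.876 FPKM, against 0.343 and 0.413 FPKM in replicates 1 and 2). Ddit3, Sesn2, Vldlr, Chac1 and Asns were named after their values were seen. Outside the integrated stress response list, replicate 3 was also the lowest I/R sample for Ccn1, Thbs1, Inhbb and Fst. It was the highest I/R sample for Timp1 and Bmp2. The order was thus not particular to that list, and these genes outside it were also picked after their values were seen. Atf3 was at 1.68, 1.25 and 1.62 FPKM in the sham samples and at 54.4, 59.5 and 19.1 FPKM in the I/R samples. Atf4 was at 40.6, 44.1 and 48.9 FPKM in the sham samples and at 98.3, 140.2 and 90.6 FPKM in the I/R samples. Both encode transcription factors of that response. In the rat assembly GRCr8 the span of Gdf15 overlaps that of the protein-coding gene Lrrc25, which was at 0.379 to 0.403 FPKM in the sham samples and at 0.323, 0.452 and 0.657 FPKM in the I/R samples. Lrrc25 was highest where Gdf15 was listed at 0, and whether the authors' counting left out fragments that 2 genes share is not stated in the sources used here.

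**Figure D3:**
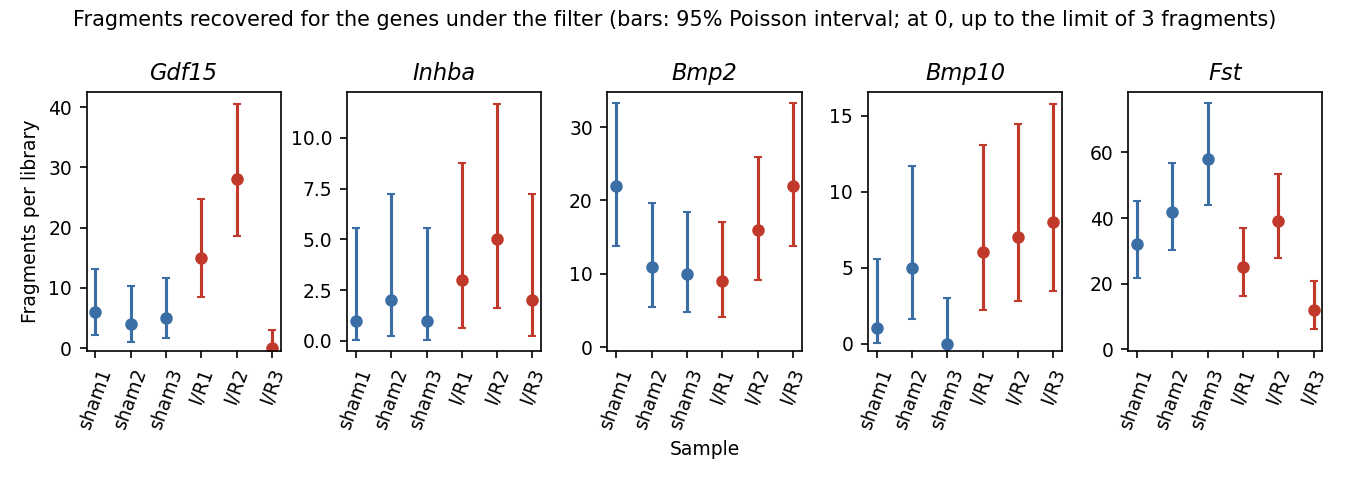
Fragments recovered per library for the 5 genes under the filter (linear axes that differ between panels, points with 95% Poisson intervals, or with a bar up to the limit of 3 fragments where the count is 0). Gdf15 reached 28 fragments in I/R replicate 2 and 0 in I/R replicate 3, and no library held more than 58 fragments of any of these genes.

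The genes whose log2(FPKM + 0.1) followed that of Gdf15 most closely over the 6 samples, among 9109 genes with a mean of at least 1 FPKM, were Ehbp1 (Pearson r = 0.967), Zfand5 (r = 0.961), ENSRNOG00000014654 (r = 0.961), Abhd16b (r = 0.938) and Tmem44 (r = 0.929). These correlations are a description over 6 samples that share their libraries with Gdf15, and the genes were picked for them. All 5 had their lowest value in I/R replicate 3 and their 2 highest in I/R replicates 1 and 2. Ehbp1 ranged from 1.65 FPKM in I/R replicate 3 to 4.70 FPKM in I/R replicate 2, while Abhd16b ranged from 1.62 to 1.97 FPKM.

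Among the BMPs, Bmp4 (ENSRNOG00000009694) was at 2.64, 3.10 and 4.01 FPKM in the sham samples and at 4.0, 5.33 and 3.67 FPKM in the I/R samples. I/R replicates 1 and 3 lay within the upper sham range and I/R replicate 2 was above it. The log2 fold change was 0.41 (standard error 0.25, 95% interval -0.15 to 0.96, adjusted p = 0.23 in limma), and it was -0.37 under scaling to the non-mitochondrial mRNAs.

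Bmp2 (ENSRNOG00000071010) was at 0.416, 0.176 and 0.166 FPKM in the sham samples and at 0.195, 0.323 and 0.472 FPKM in the I/R samples, from 9 to 22 fragments per library. The groups overlapped over most of their range, with sham replicate 1 and I/R replicate 3 highest at 22 fragments each. Without the filter, the log2 fold change was 0.30 (95% interval -0.64 to 1.25, adjusted p = 0.65 in limma). The ratio of Bmp2 to Bmp4 differed between the groups by -0.10 on the log2 scale (two-sided exact permutation p = 0.8), and the sign turned without sham replicate 1 (0.34), I/R replicate 1 (0.10) or I/R replicate 2 (0.04).

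Bmp10 (ENSRNOG00000009316), a ligand made mainly by atrial cardiomyocytes in the adult heart, had 1, 5 and 0 fragments in the sham libraries and 6, 7 and 8 fragments in the I/R libraries. The FPKM values were 0.0107, 0.0452 and 0 in the sham samples and 0.0733, 0.0799 and 0.0969 in the I/R samples, and all I/R values were above all sham values. Without the filter, the log2 fold change was 0.64 (95% interval 0.19 to 1.10, adjusted p = 0.066 in limma), and voom on the recovered fragments gave 2.52 (95% interval 0.54 to 4.50, adjusted p = 0.072 in limma), so both missed the threshold. Of the other 4 atrial markers, all tested, 1 was called higher: Sln was at 0.874, 1.08 and 0.280 FPKM in the sham samples and at 1.46, 2.04 and 3.52 FPKM in the I/R samples (adjusted p = 0.024 in limma). Myl7, the atrial light chain of myosin, was at 0.905 to 2.16 FPKM in the sham samples, at 2.73 and 3.57 FPKM in I/R replicates 1 and 2 and at 133 FPKM in I/R replicate 3. The groups overlapped for Nppa and Myl4. Nppa was at 65.3, 8.82 and 5.71 FPKM in the sham samples and at 78.4, 9.81 and 6.69 FPKM in the I/R samples (adjusted p = 0.89 in limma). Myl4 was at 3.80, 1.01 and 1.03 FPKM in the sham samples and at 1.90, 2.77 and 3.49 FPKM in the I/R samples (adjusted p = 0.27 in limma). The summed level of the 5 atrial markers, Bmp10 included, was 8.22 to 72.1 FPKM in the sham samples and 18.3 to 147.0 FPKM in the I/R samples, and their part in the Bmp10 values was not tested.

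Promoter sequence was available from RefSeq (assembly GRCr8) for 8 of the 10 genes, in 9 windows from 250 bases before to 50 bases after a transcript start. The search covered both strands for TGACGT, the core of the cAMP response element, TGANTCA, the AP-1 motif, TTGCATC, the C/EBP-ATF element, and CAGACA, a SMAD motif. The 3 stress-related motifs were in none of the 9 windows, Gdf15 included, and in 7.94%, 7.33% and 2.56% of the 33469 windows of this length. The SMAD motif was in the windows of Bmp4 and Inhba and in 21.1% of all windows. These 2 matches are shown, 20 bases each on the strand of the gene with the motif in capitals, because they are the only places where any of the 4 motifs was found in a window of these genes. A match of these letters is a description and not a site of binding. The distance given is that of the first base of the match, so the match in Inhba runs across the start.
Bmp4, chr15:22101957-22101976, minus strand, 36 bases before the start, motif in the opposite orientation: cagagccTGTCTGctccaga
Inhba, chr17:53804498-53804517, minus strand, 2 bases before the start, motif in the orientation of the gene: aggaactCAGACAgctctga

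The rest of the pathway was followed in 9 lists that held 128 genes, of which 127 were found and 79 were tested. In limma, 26 of the 79 were higher and 2 lower in I/R, or 32.9% called higher beside 25.5% of all genes tested, and the median log2 fold change was 0.48 beside 0.29, while scaling to the non-mitochondrial mRNAs gave 9 higher and 14 lower. Among the 24 other superfamily ligands, 4 were tested and 1 rose, and 7 were listed at 0 in all samples. That gene was Inha, the alpha subunit that joins a beta subunit to form inhibin, an antagonist of activin, and it was at 1.15, 0.781 and 0.609 FPKM in the sham samples and at 9.62, 8.47 and 8.83 FPKM in the I/R samples. All I/R samples were far above all sham samples, and the difference on the log2 scale was 3.30 (standard error 0.25, adjusted p = 0.00019 in limma) beside 1.10 for Inhbb.

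Of the 13 receptors and coreceptors tested out of 20, 3 were higher and 0 lower. This was 23.1% called higher, near the 25.5% of all genes tested. The 3 were the anti-Mullerian hormone receptor Amhr2 (log2 fold change 1.21) and the BMP coreceptors Hjv (1.19) and Rgma (1.16). Each of these calls was lost in several alternatives. The direction of these counts turned with the scaling, to 0 higher and 3 lower with median centring and 0 higher and 4 lower after scaling to the non-mitochondrial mRNAs. Gfral, the receptor of Gdf15, was listed at 0 in all samples. Among the Smads and nuclear cofactors, 0 of the 6 tested were called in limma in either direction, and 0 of them had an unadjusted p under 0.05 or were called by voom.

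Genes grouped as intracellular brakes and as secreted antagonists of the pathway were followed in 2 lists. The grouping was by list, and the action of each gene in it was not tested. All 11 intracellular brakes were tested, and 5 rose and 0 fell, with a median log2 fold change of 0.62. This was 45.5% called higher beside 25.5% of all genes tested. The count called higher was 3 with median centring or quantile normalization and 1 after scaling to the non-mitochondrial mRNAs. Pmepa1, a membrane protein that sequesters receptor-activated Smads, was at 9.88, 5.40 and 3.64 FPKM in the sham samples and at 18.8, 26.5 and 25.6 FPKM in the I/R samples (log2 fold change 1.99, adjusted p = 0.0043 in limma). The inhibitory Smads Smad6 and Smad7 had log2 fold changes of 1.12 and 0.93. After scaling to the non-mitochondrial mRNAs these were 0.36 and 0.19, and both calls were lost (adjusted p = 0.34 and 0.64 in limma). Among the 8 secreted antagonists tested, 2 rose, or 25%, which is near the 25.5% of all genes tested. Fstl3, a relative of follistatin that also binds activins, was at 0.547 to 0.856 FPKM in the sham samples. It was at 1.78 to 3.08 FPKM in the I/R samples (log2 fold change 1.70, adjusted p = 0.0043 in limma). The BMP antagonist Nbl1 had a log2 fold change of 0.90. After scaling to the non-mitochondrial mRNAs that of Nbl1 was 0.12, and the call was lost (adjusted p = 0.74 in limma).

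In the list of the latent complex and its activation, 4 of 11 genes rose and 1 fell, or 36.4% called higher beside 25.5% of all genes tested. Thbs1, whose product thrombospondin 1 can release TGF-beta from its latent complex, was at 0.936, 1.14 and 0.716 FPKM in the sham samples and at 34.8, 50.9 and 30.2 FPKM in the I/R samples, a log2 fold change of 5.22 (adjusted p = 1.3e-05 in limma) beside 0.57 for Tgfb1. The surface anchors of latent TGF-beta moved in opposite directions, with log2 fold changes of 1.38 for Lrrc32 and -0.86 for Nrros, which was named after its values were seen. Furin, a protease that cleaves the TGF-beta precursors, had a log2 fold change of 0.94. After scaling to the non-mitochondrial mRNAs that of Furin was 0.17, and the call was lost (adjusted p = 0.63 in limma).

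Of the 12 TGF-beta response genes, all tested, 6 rose and 0 fell, with a median log2 fold change of 0.84. This was 50% called higher beside 25.5% of all genes tested. The count called higher was 3 with quantile normalization or after scaling to the non-mitochondrial mRNAs. Those that rose included the matrix protein gene Ccn1 (3.41) and Timp1 (1.97), an inhibitor of matrix proteases. In the BMP response list 1 of 7 genes rose (14.3%), Id4 (1.37), and 1 fell, Hey1 (-0.63, adjusted p = 0.043 in limma). The call of Hey1 was lost with the replicate number as a block (adjusted p = 0.052 in limma) and whichever single sample was left out. Among the integrated stress response genes, 4 of 7 were called higher (57.1%), beside 25.5% of all genes tested. 1 of the 4, Chac1, passed the filter only through its I/R level. Scaling to the non-mitochondrial mRNAs gave 2 higher and 1 lower in this list. The 3 named by rule had log2 fold changes of 4.63 for Atf3, 1.53 for Trib3 and 1.28 for Atf4. After scaling to the non-mitochondrial mRNAs, Trib3 was at 0.89 and Atf4 at 0.49, and both calls were lost (adjusted p = 0.19 for each in limma). Quantile normalization also lost the call of Atf4 (0.24, adjusted p = 0.56 in limma), and the call of Atf3 held in every alternative. Nupr1 was not found by its symbol, and Ppp1r15a was listed at 0 in all samples.

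**Figure D4:**
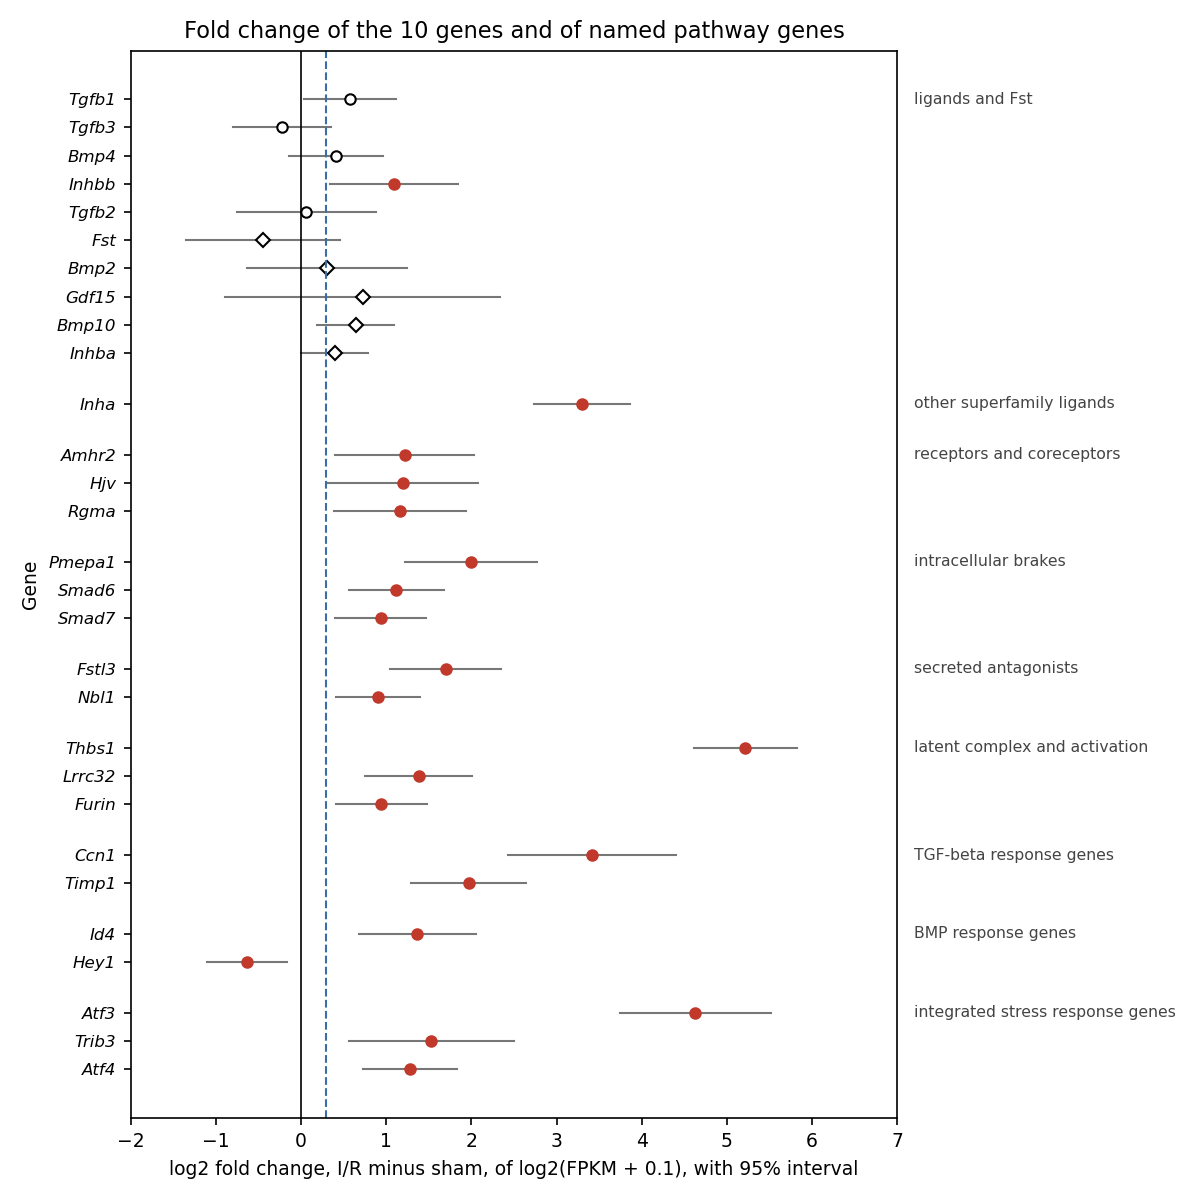
Log2 fold change with its 95% interval, I/R minus sham, for the 10 genes and 19 pathway genes. Filled circles passed the threshold in limma, open circles did not, diamonds stand for genes under the filter fitted without it, and the dashed line is the median of all genes tested, 0.29. Among the 10 genes only Inhbb is filled, while Thbs1 and Atf3 lie farthest to the right.

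Levels of other cell types were read beside these values. Of the neutrophil markers, 5 of 6 tested were higher, but Mmp8, Retnlg, Il1r2 and Csf3r had sham means under the filter and were tested only through their I/R level, so this count is no support by itself. S100a8 and S100a9, the only 2 above the filter in both groups, were both called higher. The sum of the neutrophil markers was 13.0 to 18.1 FPKM in the sham samples and 30.5 to 89.4 FPKM in the I/R samples, highest in I/R replicate 3. Of the fibroblast markers, 2 of 8 were higher, or 25%, which is near the 25.5% of all genes tested. The sum of the fibroblast markers was 423 to 584 FPKM in the sham samples and 608 to 672 FPKM in the I/R samples. Cardiomyocyte markers were higher in 5 of 7 cases (71.4%), and 0 of 7 endothelial markers were called by limma, with 2 at an unadjusted p under 0.05. Among the macrophage markers 1 of 8 was higher (12.5%) and 2 were lower, and among the smooth muscle and pericyte markers 1 of 7 was higher (14.3%) and 1 was lower. Over all genes tested, 25.5% were called higher and 7.36% lower. Some genes stand in both kinds of list, so those values are not separate. Col1a1, Col1a2 and Col3a1 are TGF-beta response genes and fibroblast markers, and Acta2 and Tagln are response genes and smooth muscle markers. Dcn is a secreted antagonist and a fibroblast marker. The part of these cell types in the values of Inhbb, Tgfb1 and the response genes was not tested.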

How the data were processed

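Stranded total RNA libraries were made from 3 sham and 3 I/R samples of rat myocardium. The authors deposited 1 table of FPKM values with 30452 rows. Their processing notes name STAR and HTSeq without versions, and the genome build, the annotation, the use of strand and of shared fragments in counting are not given in the sources used here. Columns were matched to samples by name, and rows with the same symbol were summed.

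Log2(FPKM + 0.1) was fitted with R 4.3.3 and limma 3.58.1, using eBayes with the trend option, for the genes with a mean of at least 0.5 FPKM, with Benjamini-Hochberg adjustment over all of them and a threshold of 0.05. Fold changes on this scale understate the change of low genes. Single ratios were compared by two-sided exact permutation tests. The fit was tested on simulated data.

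The value of 1 fragment differs between samples by their depth alone, and for all 19481 rows above 0 the 6 values came out as whole fragments to within 0.02 (100%). The smallest whole numbers were taken, so a common multiple cannot be told apart. These fragments were used for Poisson intervals, for the limit of 3 fragments behind a count of 0 and for limma's voom, which called 2927 genes higher and 859 lower and was added after seeing the data.

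Samples with the same replicate number deviated together from their group means (r = 0.203, 0.117 and 0.118 across genes), although the unmatched pair of sham replicate 3 and I/R replicate 2 reached 0.120. This pairing comes from the data and not from the labels, and the fit with the replicate block is given where it changes a call.

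All 10 genes are named. From each pathway list, the 3 genes past the threshold with the largest absolute log2 fold change and a mean of at least 1 FPKM are named, and the 5 genes most correlated with Gdf15. A result that this rule would name is not reported here. The genes and lists were chosen with earlier results of these data known. Other pseudocounts, filters, scalings, no trend, the highest row per symbol and each sample left out were tried. Promoter windows came from RefSeq (GRCr8), and no coordinates of the authors' build were used.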

Additional observations from a re-analysis of the deposited data

How the results depend on the processing

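Among all genes tested, 2790 were called higher and 805 lower, so that 77.6% of the calls were higher. This share was 87.3% in TPM (504 lower), 56.5% with median centring (1554 lower), 48.0% after quantile normalization (1441 higher, 1559 lower), 21.4% after scaling to the non-mitochondrial mRNAs (772 higher, 2831 lower) and 91.9% at a mean of at least 5 FPKM (166 lower), where fewer genes were tested. Of the 10 genes, 0 were called higher with no filter or after scaling to the non-mitochondrial mRNAs, and 1, Tgfb3, was called lower after that scaling and after quantile normalization. At a mean of at least 5 FPKM, only 2 of the 10 genes were tested and 0 were called higher. Inhbb lay under that filter and was not tested there. Of the 38 pathway genes tested at a mean of at least 5 FPKM, 17 were higher and 1 lower, beside 1892 higher among all 3784 genes tested there. Of the 79 pathway genes, 0 were lower in TPM, 17 higher and 6 lower with median centring, 15 and 8 after quantile normalization, 9 and 14 after scaling to the non-mitochondrial mRNAs, and 1 lower with no trend. The sign turned for Tgfb1 after quantile normalization (-0.25) and after scaling to the non-mitochondrial mRNAs (-0.21), and in the latter also for Tgfb2 (-0.69), Bmp4 (-0.37), Ehbp1 (-0.46), Zfand5 (-0.70), ENSRNOG00000014654 (-0.56), Abhd16b (-0.72) and Tmem44 (-0.75). Median centring gave -0.19 for Tgfb2, -0.16 for Zfand5, -0.0218 for ENSRNOG00000014654, -0.19 for Abhd16b and -0.23 for Tmem44, and quantile normalization gave -0.65 for Zfand5, -0.48 for ENSRNOG00000014654, -0.0679 for Abhd16b, -0.11 for Tmem44 and 0.28 for the ratio of Tgfb2 to Tgfb1. The ratio of Gdf15 to Tgfb1 was -0.30 with a pseudocount of 1 and -0.21 with 0.01. For these scalings and pseudocounts the cause was not tested. Leaving out each sample gave 1528 (without sham replicate 3) to 2557 genes called higher and 309 (without sham replicate 2, and 359 without sham replicate 3) to 881 called lower, 0 or 1 of the 10 genes called higher, and 14 (without sham replicate 3) to 22 pathway genes called higher and 1 to 3 lower. The same step gave -0.17 to 0.31 for Tgfb2, -0.0131 to 0.71 for Ehbp1, -0.0512 to 0.16 for Tmem44, -0.44 to 0.34 for Bmp2 to Bmp4 and -0.57 to 1.05 for Gdf15 to Tgfb1. Of the lists, receptors had 0 called higher without sham replicate 2 or 3 or I/R replicate 1. Brakes had 2 without sham replicate 3 and 3 without sham replicate 1 or I/R replicate 2 or 3. The latent complex had 2 without sham replicate 3 or I/R replicate 2. Scaling to the non-mitochondrial mRNAs gave 1 higher and 3 lower in the latent complex list, 1 and 2 among secreted antagonists (also with quantile normalization) and 0 and 2 among BMP response genes (1 and 3 with quantile normalization). Without sham replicate 3, TGF-beta response genes had 3 and secreted antagonists 1. Inha, Pmepa1, Fstl3, Thbs1, Ccn1, Timp1 and Atf3 were called in every alternative run for them. The 12 other named pathway genes lost the call in at least 1, namely Amhr2, Hjv, Rgma, Smad6, Smad7, Nbl1, Lrrc32, Furin, Id4, Hey1, Trib3 and Atf4. All 19 of these genes kept their direction.

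The fit with the replicate block called 3085 genes higher and 895 lower, and 2740 and 764 of these were also called without the block. Of the pathway genes, 27 were called higher in place of 26 and 1 lower in place of 2. Hey1 and Nedd4l lost their calls (adjusted p = 0.052 and 0.055 in limma), Fkbp1a and Pcsk6 gained one (adjusted p = 0.039 and 0.022 in limma), so the latent complex list had 5 higher in place of 4, and no other call among the 10 genes and the pathway genes changed. Inhba and Bmp10 held at most 5 and 8 fragments in a library, which limits the precision of their values.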

Other observations

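Several pathway genes outside the naming rule were singled out after their values were seen. Chac1, a target of the integrated stress response that breaks down glutathione, was at 0.0256 to 0.0302 FPKM in the sham samples and at 0.640, 1.97 and 1.06 FPKM in the I/R samples, and it was called higher (log2 fold change 3.25, adjusted p = 0.0035 in limma). It passed the filter only through its I/R level. Tgfbr1, the type I receptor of TGF-beta, was at 1.07, 1.94 and 1.78 FPKM in the sham samples and at 0.622, 1.04 and 0.997 FPKM in the I/R samples. All I/R samples lay below all sham samples, but the difference missed the threshold (log2 fold change -0.77, adjusted p = 0.084 in limma). Mstn, which encodes the muscle growth inhibitor myostatin, was under the filter, at 0.0526, 0.890 and 0.949 FPKM in the sham samples and at 0.0602, 0.272 and 0.169 FPKM in the I/R samples. Sham replicate 1 was the lowest of all 6 samples for Mstn, below every I/R sample.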
